A study of Mus musculus with 24 samples.

Results

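Insulin signalling and glucose transport were described here through 9 genes, chosen by name from the gene column: Slc2a4, Slc2a1, Insr, Irs1, Irs2, Akt2, Pde3b, Tbc1d4 and Trib3. They were chosen with earlier results of these data known, so counts among the 9 describe these genes and do not test the pathway. All 9 were among the 24825 genes listed in each library, and all 9 passed the filter on low values (12640 genes tested). They were measured by RNA-seq in immortalised cells of the stromal vascular fraction of mouse inguinal white fat (ingSVF), a preparation that holds adipocyte precursors. On day 7 of adipocyte differentiation, cells labelled Cre had less mRNA than ctrl cells for 8 of the 9 genes (22.7% of all genes tested were called lower), Slc2a4 among them (mean 3.21-fold lower). Slc2a1 was higher (mean 1.54-fold), as 36.1% of all genes tested were.

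Insulin binds its receptor at the cell surface, and the receptor kinase phosphorylates the substrate proteins IRS1 and IRS2. These recruit phosphoinositide 3-kinase, and the lipid it makes activates the kinase AKT2. AKT2 inactivates the Rab GTPase-activating protein TBC1D4 (AS160), which releases vesicles that carry the glucose transporter GLUT4 (Slc2a4) to the plasma membrane of fat and muscle cells. GLUT1 (Slc2a1) stands at the membrane without insulin and is the usual transporter of precursor and dividing cells. PDE3B, another enzyme downstream of AKT, degrades cyclic AMP and so mediates the antilipolytic action of insulin. TRIB3, a pseudokinase that binds AKT, is a target of the stress transcription factors ATF4 and CHOP.

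All cells came from Nfia flox/flox mice, whose exon 2 of Nfia is flanked by loxP sites, and all carried SV40 large T antigen. The 4 cell types were ctrl (empty vector), Cre (Cre recombinase delivered by retrovirus), Cre + NFIA (Cre with 3xFLAG-tagged full-length NFIA) and Cre + Δpro#3 (Cre with a tagged NFIA that lacks pro#3, a short C-terminal segment of the proline-rich domain). Each cell type was taken at day 0 and at day 7, with 3 replicates in each of the 8 groups. At confluence the cells were induced with a mixture that held IBMX, indomethacin, dexamethasone, insulin, T3 and rosiglitazone, and the last 3 agents stayed in the medium after the first days. No day 7 culture without insulin was analysed, so day 7 values are mRNA levels in cells kept in insulin and not responses to it. The sources used here do not say that replicates were separate cultures, so p-values measure the spread between these libraries, which may be technical. The cells are immortalised and carry integrated retroviral vectors, which limits them as a model of primary adipocytes.

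The libraries held 7732829 to 14622189 counted reads. Nfia itself read 6.23 to 6.75 FPKM (fragments counted, scaled to gene length and to the library's total) in ctrl and 5.34 to 6.81 in the 3 Cre libraries at day 0, and 9.15 to 9.81 and 9.49 to 10.7 FPKM at day 7. The gene-level value did not fall in the libraries labelled Cre, and it does not show loss of 1 exon, since reads of the other exons are counted. In separate assays of Cre cells, the authors reported efficient recombination by genomic PCR, with NFIA nearly absent by RT-qPCR and on western blots. In Cre + NFIA and Cre + Δpro#3 the gene-level value was 69.7 to 74.9 and 59.7 to 61.7 FPKM at day 0, reads of the transgene included. By day 7 their means were 90.0 ± 6.68 and 102 ± 8.44 FPKM (SD, n = 3). The summed level of 10 adipocyte markers at day 7 was 21956 to 25587 FPKM in ctrl, 4388 to 9434 in Cre, 20608 to 20805 in Cre + NFIA and 840.0 to 2121 in Cre + Δpro#3, against 72.5 to 118 FPKM in all day 0 libraries. The sum of 7 precursor markers, which is mostly Ly6a, ran the other way, 461 to 501, 1035 to 1163, 482 to 551 and 1194 to 1431 FPKM. The pericyte and smooth muscle list, which is mostly Acta2, summed to 137 to 168, 179 to 225, 79.3 to 94.5 and 231 to 282 FPKM in the same order. Of 6 precursor markers tested, 6 were higher in Cre than ctrl at day 7 (all genes: 36.1% higher). In Cre + Δpro#3 against Cre, 1 was higher, 1 was lower and 4 did not pass, while all 9 adipocyte markers tested were lower (all genes: 7.70% higher, 10.0% lower). The highest single value in the adipocyte sum was Fabp4, at 18536 FPKM. Over all libraries the sums were 4.50 to 13.6 FPKM for leukocyte, 1.55 to 10.2 for endothelial, 1.22 to 8.69 for mesothelial, 0.592 to 2.32 for Schwann and 0.539 to 6.43 for skeletal muscle markers, with Adgre1, Myod1 and Myh4 at 0 in every library. In bulk RNA, fewer cells of a type and less RNA per cell cannot be told apart, and the part of the adipocyte share in the results below was not tested.

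In the NCBIM37 build, Slc2a4 lies at chr11:69756045-69761690 (minus strand), Slc2a1 at chr4:118781316-118809935 (plus), Insr at chr8:3150922-3279617 (minus), Irs1 at chr1:82229676-82287991 (minus) and Irs2 at chr8:10986980-11008458 (minus). Akt2 lies at chr7:28376571-28425845 (plus), Pde3b at chr7:121558795-121682765 (plus), Tbc1d4 at chr14:101841577-102008408 (minus) and Trib3 at chr2:152163158-152169768 (minus). All 9 are annotated as protein coding, and the values count exonic reads of the whole gene. RefSeq promoter windows (250 bases before to 50 after a gene start, build GRCm38.p6) were given for 6 of the 9 genes, in 9 windows, of which Akt2 had 4. Slc2a4, Insr and Pde3b had no entry.

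Because the cells differ in NFIA, the windows were searched on both strands for the nuclear factor I (NFI) core TTGGCA and for the NFI full site, the PPAR response element, the FOXO site TGTTTAC and the ATF4-C/EBP composite TGATGCAA. The core was in 3 of the 9 windows, 1 of Tbc1d4 and 2 of Akt2, against 14.1% of all 32851 windows. The other 4 motifs were in none of the 9, and in 0.0365%, 0.0396%, 3.65% and 0.895% of all windows in the order named. The core without its last letter also forms an end of the full site, so matches of these 2 motifs can overlap. A match is a run of letters and not a bound site. The windows of 3 genes with unlike patterns are shown, Tbc1d4 (higher with full-length NFIA at both days), Slc2a1 (lower with it at day 7) and Trib3 (higher with it at day 0), 5′ to 3′ on the gene's strand, with capitals at the core.
Tbc1d4, chr14:101609142-101609441, minus strand: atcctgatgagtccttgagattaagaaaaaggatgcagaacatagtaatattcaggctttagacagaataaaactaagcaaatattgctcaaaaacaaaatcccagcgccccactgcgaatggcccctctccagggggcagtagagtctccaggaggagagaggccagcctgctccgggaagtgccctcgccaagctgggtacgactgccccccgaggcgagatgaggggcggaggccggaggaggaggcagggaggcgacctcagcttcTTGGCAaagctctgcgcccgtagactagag
Slc2a1, chr4:119108495-119108794, plus strand: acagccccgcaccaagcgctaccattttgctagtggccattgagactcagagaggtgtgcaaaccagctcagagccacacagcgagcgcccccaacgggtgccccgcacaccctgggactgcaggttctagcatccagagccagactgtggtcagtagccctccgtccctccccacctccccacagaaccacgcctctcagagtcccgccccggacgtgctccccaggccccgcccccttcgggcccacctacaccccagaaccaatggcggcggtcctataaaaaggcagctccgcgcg
Trib3, chr2:152344011-152344310, minus strand: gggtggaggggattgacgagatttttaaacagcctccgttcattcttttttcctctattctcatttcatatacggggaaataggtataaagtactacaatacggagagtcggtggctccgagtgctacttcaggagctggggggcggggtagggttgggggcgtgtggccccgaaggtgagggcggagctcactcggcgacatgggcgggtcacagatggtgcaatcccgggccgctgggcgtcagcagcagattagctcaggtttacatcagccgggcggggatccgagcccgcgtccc

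The Tbc1d4 core starts at base 271 of its window, 20 bases past the gene start. The share of G and C was 55.7% in the Tbc1d4 window, 65.3% in that of Slc2a1 and 58.3% in that of Trib3, and the windows held 12, 18 and 21 CpG dinucleotides. The windows of Irs1 and Irs2 were richer, with 71.3% and 72.0% G and C and 28 and 41 CpG.

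The first question was how loss of NFIA function relates to the insulin pathway in differentiated cells. At day 7 all 9 genes passed the test between Cre and ctrl (adjusted p under 0.05, limma on log2(FPKM + 1)). Lower in Cre were 8 of 9, where 22.7% of all genes tested were called lower, and higher was 1 of 9, where 36.1% were called higher. The median log2 fold change of the 9 was -0.99, and that of all genes tested was 0.09. With a change of at least 3-fold on the same scale added, 1 gene passed, Slc2a4, where 1.51% of all genes did.

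**Figure D1:**
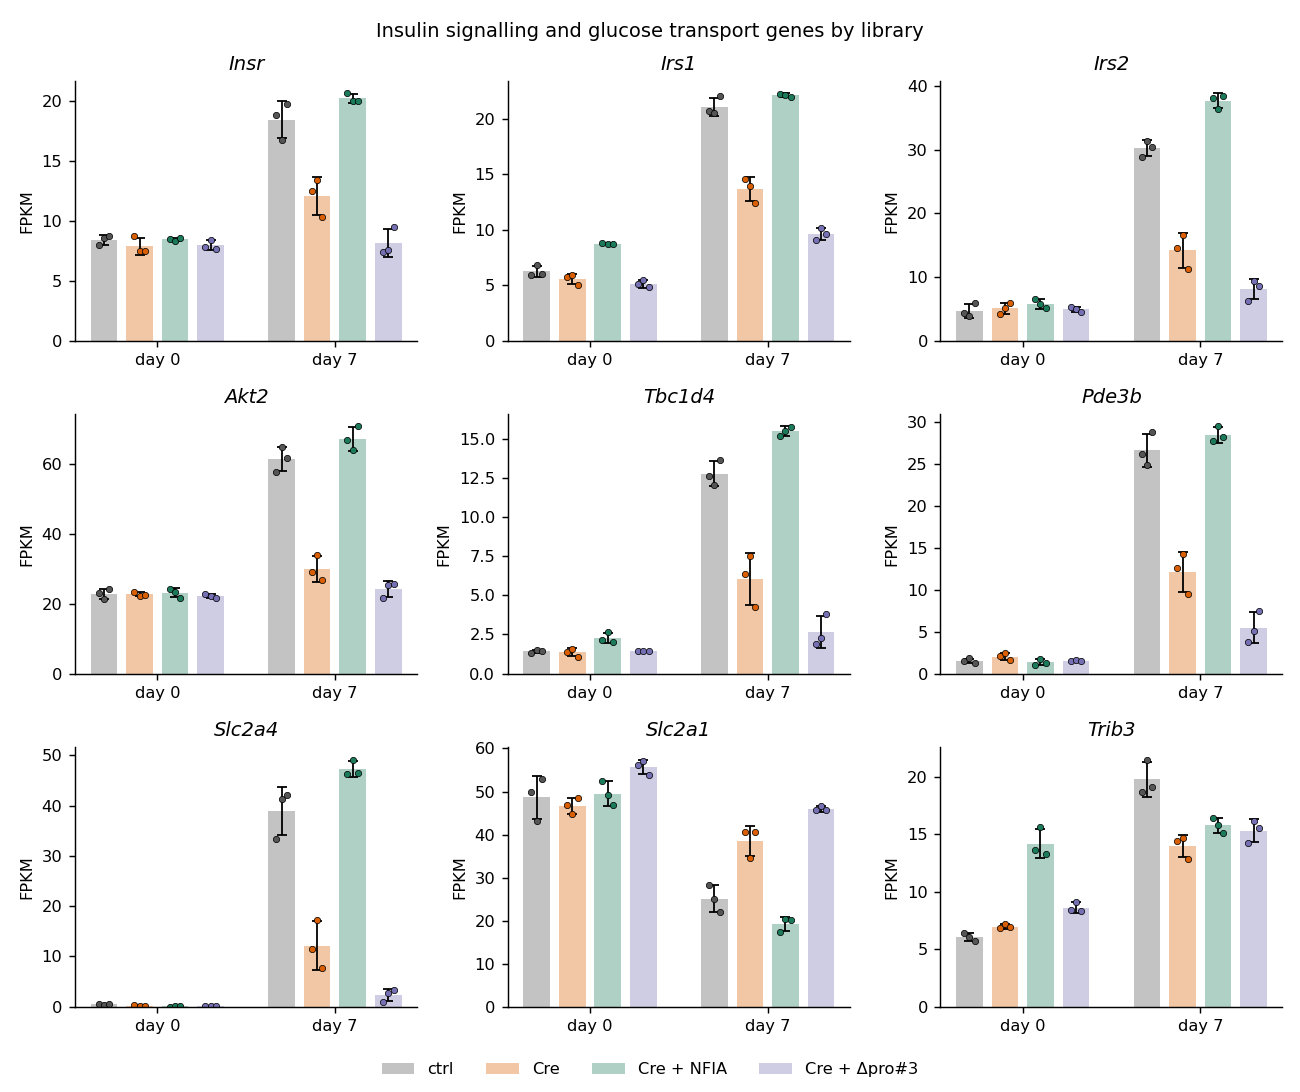
FPKM (linear axes from 0) of the 9 genes in the 24 libraries, by cell type and day; bars are means of 3 libraries, error bars SD, and points single libraries. At day 7 ctrl and Cre + NFIA stand above Cre and Cre + Δpro#3 for Insr, Irs1, Irs2, Akt2, Tbc1d4, Pde3b and Slc2a4, and below them for Slc2a1.

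Adding full-length NFIA to Cre cells was compared next. At day 7, Cre + NFIA libraries had more mRNA than Cre libraries for 7 of 9 genes (all genes: 27.0% higher) and less for 1 (Slc2a1, all genes: 35.9% lower), and Trib3 did not pass. The median log2 fold change was 1.14 for the 9 and -0.06 for all genes. Slc2a4 alone passed with 3-fold (3.63% of all genes). Both comparisons use the same Cre libraries.

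The Δpro#3 mutant in place of the full-length protein gave the opposite direction for most of these genes. Against Cre at day 7, 7 of 9 were lower in Cre + Δpro#3 (all genes: 10.0% lower), none was higher (all genes: 7.70%), and Slc2a1 and Trib3 did not pass. The median was -0.52 against 0.02 over all genes, and Slc2a4 was the 1 gene past 3-fold (0.625% of all genes). Akt2 passed narrowly at -0.29 (SE 0.089, adjusted p = 0.0431). Its call was lost without ctrl replicate 3, Cre replicate 1 or 2, any 1 Cre + NFIA replicate, or Cre + Δpro#3 replicate 1 or 2, with adjusted p from 0.0541 to 0.167. It was also lost with no filter on low values (adjusted p = 0.0829), with only the groups compared in the fit (adjusted p = 0.129) and with no variance trend (adjusted p = 0.0592).

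Between the 2 cell types with added NFIA, 7 of 9 genes were lower with the mutant than with full-length NFIA at day 7 (all genes: 28.9% lower), 1 was higher (Slc2a1, all genes: 40.4% higher), and Trib3 did not pass. The median was -1.43 against 0.10 for all genes. Slc2a4, Irs2, Pde3b and Tbc1d4 passed with 3-fold (4 of 9, where 6.92% of all genes did). Cre + NFIA cells set against ctrl gave 2 of 9 lower genes, Slc2a1 and Trib3 (all genes: 9.15% lower), and none higher (all genes: 8.81%), with a median of 0.13 for the 9 and 0.02 for all genes. None of the 9 passed 3-fold there (0.301% of all genes). Of the 2 calls, Slc2a1 was lost without ctrl replicate 1 (adjusted p = 0.0728) or Cre + NFIA replicate 1 (adjusted p = 0.0798), and Trib3 without Cre + NFIA replicate 3 (adjusted p = 0.0538).

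**Figure D2:**
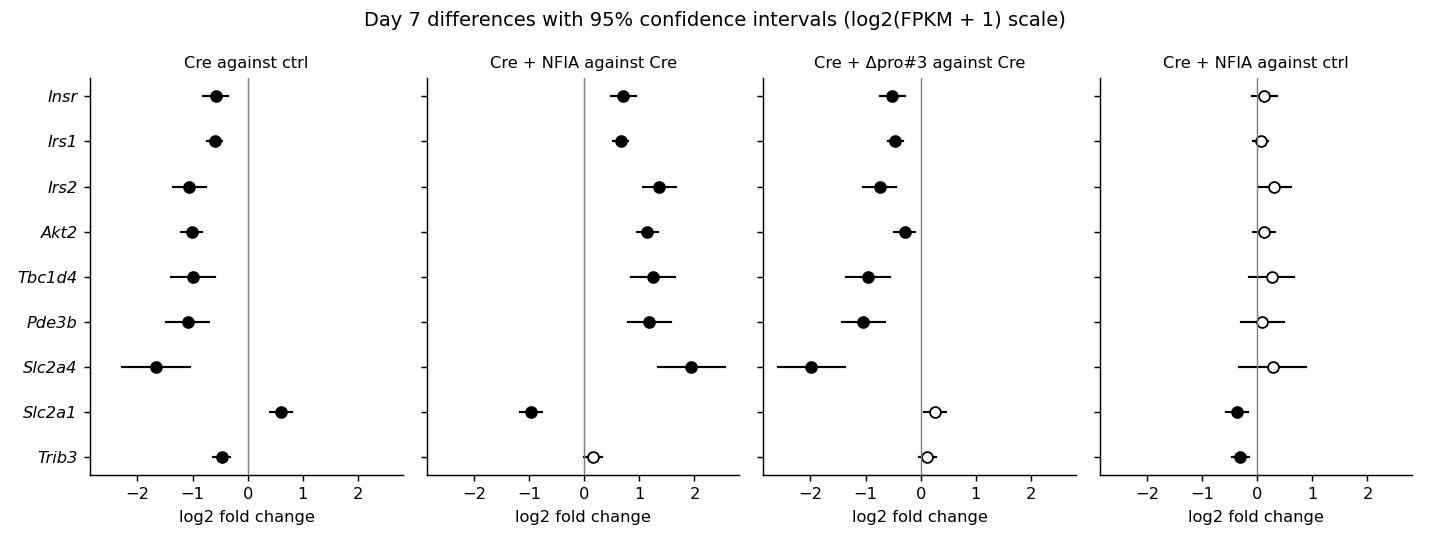
Log2 fold change on the log2(FPKM + 1) scale (horizontal) of the 9 genes (vertical) in 4 comparisons at day 7; points are limma estimates from 3 libraries a group, lines are 95% confidence intervals, and filled points have adjusted p under 0.05. In the panel of Cre + NFIA against ctrl, 7 of the 9 points are open, and the intervals of Slc2a1 and Trib3 lie below 0.

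Slc2a4, the insulin-regulated transporter GLUT4, had the largest log2 change of the 9 in each of the 3 day 7 comparisons with Cre. It read 33.4, 41.3 and 42.2 FPKM in the 3 ctrl libraries and 11.4, 17.3 and 7.67 in the 3 Cre libraries. It read 46.2, 49.2 and 46.5 FPKM in Cre + NFIA and 0.998, 2.77 and 3.23 FPKM in Cre + Δpro#3. The order Cre + NFIA, ctrl, Cre, Cre + Δpro#3 held with no overlap between neighbours, but the first pair did not pass the test (log2 fold change 0.28 (SE 0.28, adjusted p = 0.541)). The log2 fold change in Cre relative to ctrl was -1.67 (SE 0.28, adjusted p = 0.000303), in Cre + NFIA relative to Cre 1.95 (SE 0.28, adjusted p = 7.28e-05), and in Cre + Δpro#3 relative to Cre -1.98 (SE 0.28, adjusted p = 0.000872). Means were 20.3-fold apart between the 2 cell types with added NFIA. Cre replicate 2 was the highest of its group for Slc2a4 and also had the highest adipocyte marker sum of the Cre libraries (9434 FPKM), and Cre + Δpro#3 replicate 1 was the lowest of its group for both, with a marker sum of 840.0 FPKM. The 2 orders differed in the other groups. Cre + NFIA replicate 2 had the highest Slc2a4 of its group and the lowest marker sum (20608 FPKM). In ctrl, replicate 3 was highest for Slc2a4 and replicate 2 for the marker sum (25587 FPKM), while replicate 1 was lowest for both.

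Slc2a1, the insulin-independent transporter GLUT1, went the other way. It read 28.2, 24.9 and 22.0 FPKM in the 3 ctrl libraries and 40.6, 34.5 and 40.6 in the 3 Cre libraries. It read 17.4, 20.3 and 20.0 FPKM in Cre + NFIA and 45.6, 46.7 and 45.6 FPKM in Cre + Δpro#3. The 4 groups did not overlap, with Cre + Δpro#3 highest and Cre + NFIA lowest. Relative to ctrl, Cre was higher by 0.61 (SE 0.091, adjusted p = 0.000136) on the log2 scale. The log2 fold change of Cre + NFIA was -0.96 (SE 0.091, adjusted p = 2.37e-06) relative to Cre and -0.36 (SE 0.091, adjusted p = 0.0184) relative to ctrl. The mutant was not told apart from Cre (0.25 (SE 0.091, adjusted p = 0.081), 95% interval 0.05 to 0.45), a value that passed with all 24 libraries in the fit (adjusted p = 0.0406) and with voom on reads (adjusted p = 0.0483).

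The opposed transporters gave a wide range of GLUT4 share, Slc2a4 FPKM as a percentage of Slc2a4 plus Slc2a1 FPKM. At day 7 it was 54.2, 62.3 and 65.7% in the ctrl libraries and 21.9, 33.4 and 15.9% in the Cre libraries. It was 72.6, 70.8 and 69.9% with full-length NFIA and 2.14, 5.60 and 6.61% with the mutant. The groups did not overlap, with means of 60.8% ± 5.92, 23.7% ± 8.92, 71.1% ± 1.40 and 4.78% ± 2.34 (SD, n = 3). Transcripts of Slc2a4 were thus more numerous per length than those of Slc2a1 in ctrl and Cre + NFIA libraries, and fewer in Cre and Cre + Δpro#3 libraries. At day 0 the means were 0.969% ± 0.109, 0.477% ± 0.163, 0.190% ± 0.113 and 0.186% ± 0.0304 in the same order, and these day 0 shares rest on few Slc2a4 reads.

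**Figure D3:**
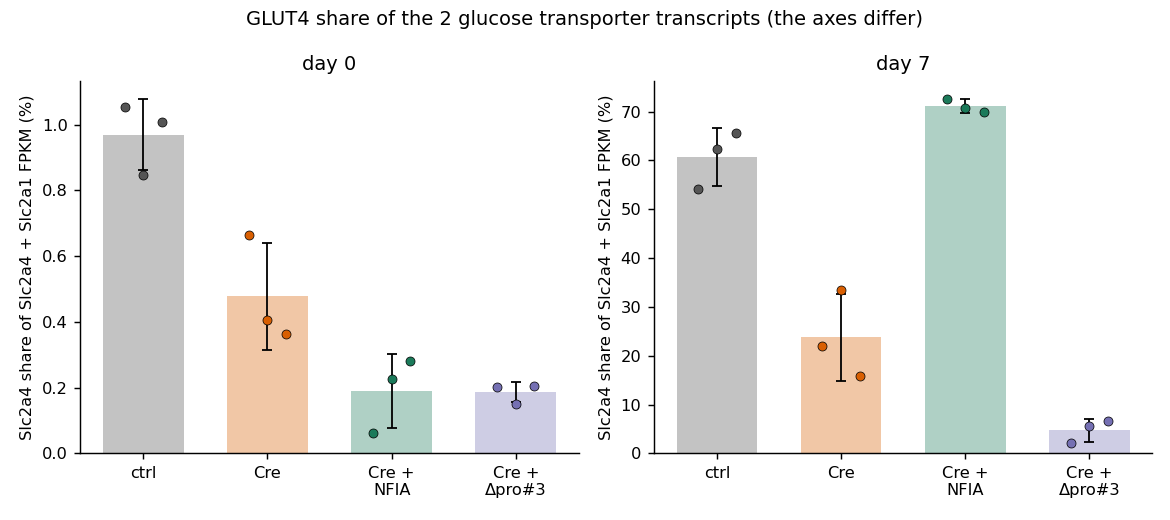
Share of Slc2a4 in the summed FPKM of Slc2a4 and Slc2a1 (percent) by cell type at day 0 and day 7, on axes of different range that start at 0; bars are means of 3 libraries, error bars SD, and points libraries. The day 7 means run from 4.78% in Cre + Δpro#3 to 71.1% in Cre + NFIA, and all day 0 points lie at or under 1.05%.

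Insr encodes the receptor itself. At day 7 it read 18.8, 16.8 and 19.8 FPKM in the 3 ctrl libraries and 12.5, 13.4 and 10.3 in the 3 Cre libraries, a log2 fold change of -0.58 (SE 0.10, adjusted p = 0.000477). It read 20.7, 20.0 and 20.1 FPKM in Cre + NFIA and 7.42, 7.55 and 9.48 FPKM in Cre + Δpro#3. The 4 groups did not overlap at day 7, and the mutant libraries overlapped the day 0 values of every cell type. The log2 fold change was 0.71 (SE 0.10, adjusted p = 8.31e-05) for Cre + NFIA and -0.52 (SE 0.10, adjusted p = 0.00533) for Cre + Δpro#3, both relative to Cre.

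Both receptor substrates were lower in Cre than in ctrl. Irs2 read 28.9, 31.3 and 30.4 FPKM in the 3 ctrl libraries and 14.5, 16.7 and 11.3 in the 3 Cre libraries at day 7. It read 38.2, 36.3 and 38.5 FPKM in Cre + NFIA and 6.28, 9.42 and 8.59 FPKM in Cre + Δpro#3. All 4 groups were apart, and Cre + NFIA lay above ctrl in every library without passing the test (0.31 (SE 0.14, adjusted p = 0.143)). Fitted on ctrl and Cre + NFIA alone, this difference passed (adjusted p = 0.0072), and so did voom on reads (adjusted p = 0.0435). Relative to Cre, the log2 fold change of Irs2 was 1.37 (SE 0.14, adjusted p = 3.75e-06) with full-length NFIA and -0.74 (SE 0.14, adjusted p = 0.00353) with the mutant. Irs1 read 20.7, 20.6 and 22.0 FPKM in the 3 ctrl libraries and 14.6, 14.0 and 12.5 in the 3 Cre libraries. It read 22.3, 22.2 and 22.0 FPKM in Cre + NFIA and 9.11, 10.1 and 9.67 FPKM in Cre + Δpro#3. For Irs1 only ctrl and Cre + NFIA overlapped at day 7. Its log2 fold change was -0.59 (SE 0.063, adjusted p = 9.19e-06) in Cre relative to ctrl, 0.66 (SE 0.063, adjusted p = 2.32e-06) in Cre + NFIA relative to Cre and -0.46 (SE 0.063, adjusted p = 0.000777) in the mutant relative to Cre, each closer to 0 than that of Irs2 (-1.06 (SE 0.14, adjusted p = 4.28e-05) in Cre relative to ctrl). Whether the 2 genes differ in change was not tested.

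Akt2, the kinase isoform tied to insulin-driven glucose uptake, had the highest day 7 FPKM of the 9 in ctrl. It read 57.8, 64.8 and 61.6 FPKM in the 3 ctrl libraries and 29.0, 34.0 and 26.8 in the 3 Cre libraries, 2.05-fold lower by means, with a log2 fold change of -1.02 (SE 0.089, adjusted p = 2.59e-06). It read 66.8, 63.9 and 70.7 FPKM in Cre + NFIA and 21.6, 25.4 and 25.8 FPKM in Cre + Δpro#3. Full-length NFIA libraries overlapped ctrl, and mutant libraries overlapped the day 0 values. Tbc1d4, the AKT substrate AS160, read 12.6, 12.1 and 13.6 FPKM in the 3 ctrl libraries and 6.38, 7.53 and 4.27 in the 3 Cre libraries. It read 15.1, 15.5 and 15.8 FPKM in Cre + NFIA and 1.91, 2.28 and 3.80 FPKM in Cre + Δpro#3. Its groups did not overlap, and Cre replicate 3 stood nearest to the mutant. Tbc1d4 changed by -0.99 (SE 0.18, adjusted p = 0.000648) on the log2 scale from ctrl to Cre, 1.25 (SE 0.18, adjusted p = 9.13e-05) from Cre to Cre + NFIA and -0.95 (SE 0.18, adjusted p = 0.00453) from Cre to the mutant. The last call was lost when only those 2 groups were fitted (adjusted p = 0.0531), and in a fit of ctrl and Cre + NFIA alone Tbc1d4 passed between them (adjusted p = 0.0268).

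Pde3b, the phosphodiesterase of insulin's antilipolytic action, was lower in Cre than in ctrl at day 7. It read 26.1, 24.9 and 28.7 FPKM in the 3 ctrl libraries and 12.6, 14.2 and 9.52 in the 3 Cre libraries at day 7. It read 27.6, 29.4 and 28.1 FPKM in Cre + NFIA and 3.79, 5.13 and 7.49 FPKM in Cre + Δpro#3. Only ctrl and Cre + NFIA overlapped. The mutant libraries were 5.19-fold lower than those with full-length NFIA by means, with a log2 fold change of -2.22 (SE 0.18, adjusted p = 3.29e-07). In Cre relative to ctrl the log2 fold change was -1.09 (SE 0.18, adjusted p = 0.000241). Relative to Cre it changed by 1.18 (SE 0.18, adjusted p = 0.000101) with full-length NFIA and -1.04 (SE 0.18, adjusted p = 0.00211) with the mutant.

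Trib3, the AKT-binding pseudokinase, had another order of groups, with ctrl highest. At day 7 it read 18.7, 21.5 and 19.1 FPKM in the 3 ctrl libraries and 14.4, 14.7 and 12.8 in the 3 Cre libraries, a log2 fold change of -0.47 (SE 0.073, adjusted p = 0.000159). It read 16.4, 15.8 and 15.1 FPKM in Cre + NFIA and 14.2, 16.2 and 15.5 FPKM in Cre + Δpro#3. Libraries with either NFIA form overlapped each other and lay below ctrl, and mutant libraries overlapped Cre. Neither form passed against Cre: the values were 0.16 (SE 0.073, adjusted p = 0.067) for full-length NFIA (95% interval 0.01 to 0.32) and 0.12 (SE 0.073, adjusted p = 0.288) for the mutant (95% interval -0.04 to 0.28). The first passed after median-of-ratios scaling (adjusted p = 0.0106) or quantile normalization (adjusted p = 0.0254), and without ctrl replicate 2 (adjusted p = 0.0479).

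**Figure D4:**
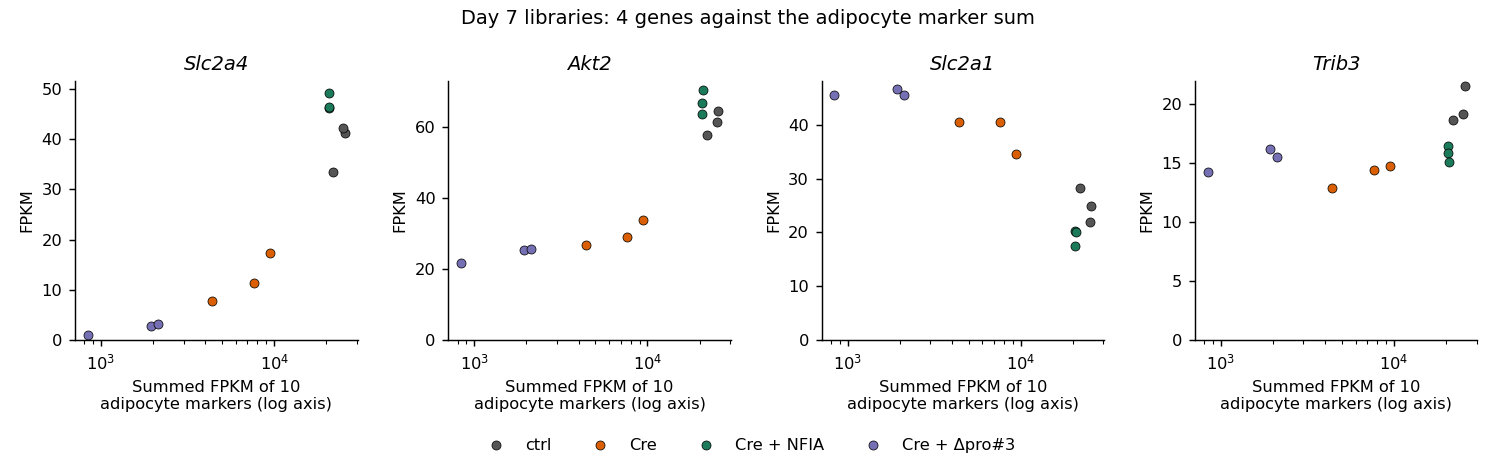
FPKM (vertical, from 0) of Slc2a4, Akt2, Slc2a1 and Trib3 against the summed FPKM of 10 adipocyte markers (horizontal, log axis) in the 12 libraries of day 7, coloured by cell type; each point is 1 library. Cre + Δpro#3 lies lowest and Cre next on the marker axis, where Slc2a4 and Akt2 are low and Slc2a1 is high.

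Before differentiation fewer of the genes differed between cell types. At day 0 none of the 9 genes passed between Cre and ctrl (limma adjusted p under 0.05: 3.33% of all genes, and with 3-fold: 0.0237%). With voom on reads 0 passed as well. Full-length NFIA raised 3 of 9 relative to Cre, Irs1, Tbc1d4 and Trib3 (all genes: 14.7% higher, 27.6% in either direction), and none passed 3-fold (0.538% of all genes). The mutant raised 2 of 9 relative to Cre, Slc2a1 and Trib3 (all genes: 9.26% higher, 18.3% in either direction), with none past 3-fold (0.142%). Relative to full-length NFIA the mutant had lower Irs1, Tbc1d4 and Trib3 (3 of 9; all genes: 5.59% lower, 10.1% in either direction), with none past 3-fold (0.190%). Cre + NFIA against ctrl gave 4 of 9, Irs1, Tbc1d4 and Trib3 higher and Slc2a4 lower (33.1% of all genes passed), again with none past 3-fold (0.435%).

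Trib3 read 6.44, 6.07 and 5.74 FPKM in the 3 ctrl libraries and 6.81, 7.19 and 6.90 in the 3 Cre libraries at day 0. It read 13.6, 15.6 and 13.3 FPKM in Cre + NFIA and 8.45, 9.13 and 8.28 FPKM in Cre + Δpro#3. No 2 groups overlapped, and Cre + NFIA was 2.03-fold above Cre by means. The log2 fold change relative to Cre was 0.93 (SE 0.071, adjusted p = 6.3e-06) with full-length NFIA and 0.27 (SE 0.071, adjusted p = 0.0233) with the mutant, and the mutant lay -0.66 (SE 0.071, adjusted p = 0.000157) from full-length NFIA. The smaller rise with the mutant was lost with voom on reads (adjusted p = 0.0664) and without Cre replicate 1 or 3 or Cre + Δpro#3 replicate 1 or 2 (adjusted p from 0.0577 to 0.0911).

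Of the 14 other ATF4 and CHOP stress-response genes, 8 were higher, 1 was lower and 5 did not pass in Cre + NFIA relative to Cre at day 0, with a median log2 fold change of 0.39. Over all genes 14.7% were higher and 12.9% lower there, with a median of 0.02. Psat1, a serine synthesis enzyme, changed by 0.97 (SE 0.075, adjusted p = 6.78e-06) and Asns, asparagine synthetase, by 0.78 (SE 0.072, adjusted p = 2.29e-05), both named, like the other genes of this list given here, after their values were seen. Ddit3, which encodes CHOP, did not pass (-0.02 (SE 0.070, adjusted p = 0.833)), and Atf4 itself rose by 0.13 (SE 0.038, adjusted p = 0.0305). At day 7 the same comparison gave 7 higher, 5 lower and 2 that did not pass (all genes: 27.0% higher, 35.9% lower), with Ddit3 lower at -0.49 (SE 0.072, adjusted p = 7.96e-05). The 3 adipocyte markers that rose at day 0 of 9 tested came with marker sums of 82.7 to 101 FPKM in Cre and 105 to 111 FPKM in Cre + NFIA, and their part in the rise of Trib3 was not tested.

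**Figure D5:**
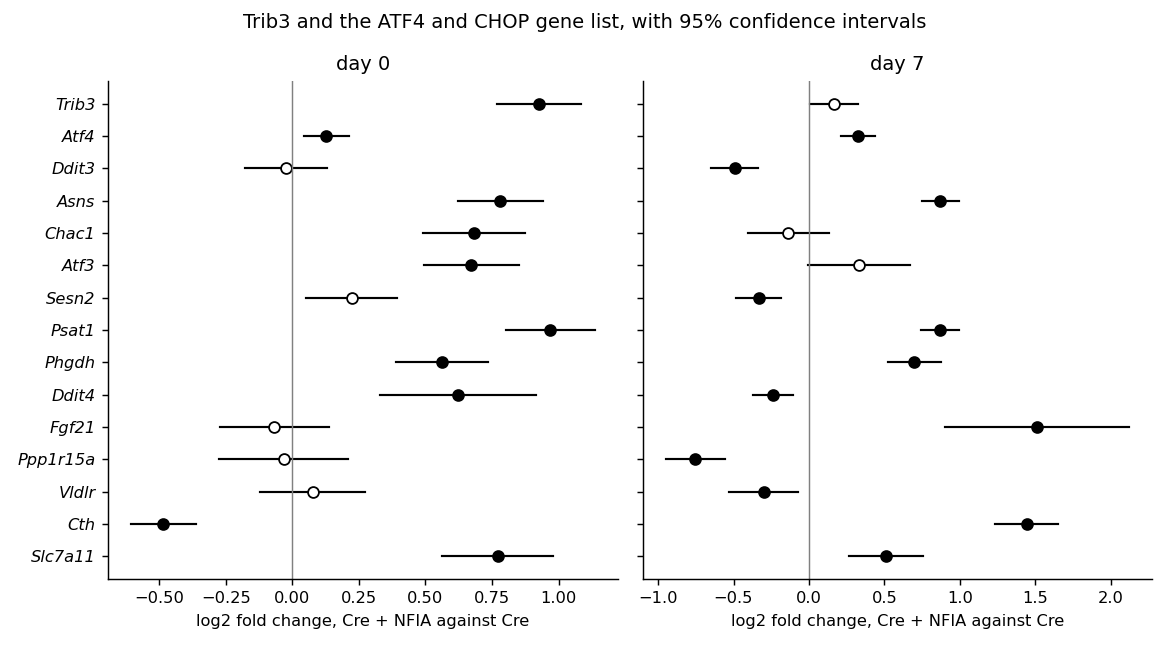
Log2 fold change (horizontal, log2(FPKM + 1) scale, axes differ) of Trib3 and 14 ATF4 and CHOP stress-response genes (vertical) in Cre + NFIA against Cre at day 0 and day 7; points are limma estimates from 3 libraries a group, lines 95% intervals, and filled points have adjusted p under 0.05. Trib3 is filled at day 0 (0.93) and open at day 7 (0.16).

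Irs1 read 5.70, 5.94 and 5.05 FPKM in Cre and 8.78, 8.72 and 8.71 FPKM in Cre + NFIA at day 0, and Tbc1d4 read 1.38, 1.60 and 1.09 and 2.16, 2.66 and 1.99 FPKM. Neither pair of groups overlapped. The log2 fold change was 0.57 (SE 0.076, adjusted p = 0.000274) for Irs1 and 0.47 (SE 0.096, adjusted p = 0.00401) for Tbc1d4. With the mutant both stayed near Cre, at 4.81 to 5.48 FPKM for Irs1 (95% interval -0.27 to 0.07 for the log2 fold change relative to Cre) and 1.46 to 1.47 FPKM for Tbc1d4 (95% interval -0.14 to 0.28). The difference of the mutant from full-length NFIA was -0.67 (SE 0.076, adjusted p = 0.000199) for Irs1 and -0.40 (SE 0.096, adjusted p = 0.0221) for Tbc1d4. The Tbc1d4 call was lost with all 24 libraries in the fit (adjusted p = 0.108) and without Cre + NFIA replicate 2 or any 1 mutant replicate (adjusted p from 0.0645 to 0.0819).

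Slc2a4 was near the limit of detection at day 0, with 13 to 20 reads per library in ctrl, 4 to 9 in Cre, 1 to 4 in Cre + NFIA and 3 to 4 in Cre + Δpro#3. A count of 3 reads was taken as the floor, which allows for counting error only and not for the spread between libraries. In FPKM it read 0.532, 0.368 and 0.539 in ctrl and 0.313, 0.183 and 0.177 in Cre. It read 0.0331, 0.112 and 0.132 FPKM in Cre + NFIA. All ctrl libraries lay above all others. Cre + NFIA relative to ctrl passed (-0.44 (SE 0.073, adjusted p = 0.00111)) but not with all 24 libraries in the fit (adjusted p = 0.134). With voom on reads this difference passed, at a log2 fold change of -2.31 (adjusted p = 0.000748). Cre relative to ctrl was -0.27 (SE 0.073, adjusted p = 0.0715) and passed without Cre replicate 1 (adjusted p = 0.0494).

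Slc2a1 was already high at day 0, at 43.1 to 53.0 FPKM in ctrl, 44.8 to 48.5 in Cre, 46.8 to 52.5 in Cre + NFIA and 53.8 to 57.1 in Cre + Δpro#3. The first 3 groups overlapped, and the mutant lay above them. Its rise relative to Cre was 0.25 (SE 0.071, adjusted p = 0.0329), and the call was lost without the filter on low values (adjusted p = 0.0606), after median-of-ratios scaling (adjusted p = 0.0669) or quantile normalization (adjusted p = 0.0646), and without Cre replicate 1 or 2 or any 1 mutant replicate (adjusted p from 0.0594 to 0.105). Insr, Irs2 and Akt2 overlapped among all 4 cell types, with group means of 7.88 to 8.47, 4.67 to 5.76 and 22.2 to 23.1 FPKM. Pde3b means ran from 1.35 to 2.02 FPKM. Its value in Cre + NFIA relative to Cre, -0.37 (SE 0.13, adjusted p = 0.0507), passed without ctrl replicate 2, Cre replicate 3 or Cre + NFIA replicate 2 (adjusted p from 0.0177 to 0.0449), and with voom on reads (adjusted p = 0.0259). Irs2 in Cre + NFIA relative to ctrl (0.26 (SE 0.14, adjusted p = 0.191)) passed without ctrl replicate 3 (adjusted p = 0.0452).

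Differentiation itself was compared next, day 7 against day 0 within each cell type. In ctrl 8 of 9 genes rose (32.9% of all genes) and Slc2a1 fell (38.1% of all genes), with 5 past 3-fold (8.50% of all genes): Slc2a4, Pde3b, Tbc1d4, Irs2 and Irs1. In Cre 8 of 9 rose (30.0% of all genes) and Slc2a1 fell (21.6%), with 2 past 3-fold, Slc2a4 and Pde3b (2.73%). In Cre + NFIA 7 rose (31.8% of all genes) and Slc2a1 fell (38.3%), with 4 past 3-fold (9.08%). In Cre + Δpro#3 6 rose (24.5% of all genes) and Slc2a1 fell (17.0%), with 0 past 3-fold (1.46%), while Akt2 and Insr did not pass. Median log2 fold changes of the 9 were 1.61, 1.16, 1.50 and 0.61 in ctrl, Cre, Cre + NFIA and Cre + Δpro#3, beside -0.05, 0.05, -0.05 and 0.05 for all genes.

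Slc2a4 rose most, by 4.75 (SE 0.22, adjusted p = 6.41e-14) on the log2(FPKM + 1) scale in ctrl, 3.36 (SE 0.22, adjusted p = 8.7e-11) in Cre, 5.47 (SE 0.22, adjusted p = 6.85e-15) in Cre + NFIA and 1.52 (SE 0.22, adjusted p = 1.06e-05) in Cre + Δpro#3. Because the day 0 counts were so low, this scale makes the change smaller, and voom on reads gave 6.32 in ctrl, 5.54 in Cre, 8.91 in Cre + NFIA and 4.18 in Cre + Δpro#3. Pde3b rose by 3.44 (SE 0.16, adjusted p = 7.45e-14) in ctrl and 1.31 (SE 0.16, adjusted p = 1.26e-06) in the mutant, from day 0 levels of at most 2.40 FPKM in every cell type. Akt2 rose by 1.39 (SE 0.076, adjusted p = 9.62e-13) in ctrl, 0.38 (SE 0.076, adjusted p = 0.000311) in Cre and 1.50 (SE 0.076, adjusted p = 2.56e-13) in Cre + NFIA, and its value with the mutant was 0.12 (SE 0.076, adjusted p = 0.232). Insr rose by 1.05 (SE 0.089, adjusted p = 1.2e-09) in ctrl, and with the mutant its value was 0.02 (SE 0.089, adjusted p = 0.887), 95% interval -0.17 to 0.21. In mutant cells neither the receptor nor Akt2 passed, while Irs1 (0.80 (SE 0.067, adjusted p = 6.21e-09)) and Irs2 (0.61 (SE 0.14, adjusted p = 0.00187)) rose.

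Slc2a1 fell in all 4 cell types, with log2 fold changes of -0.93 (SE 0.085, adjusted p = 3.32e-09) in ctrl, -0.27 (SE 0.085, adjusted p = 0.0106) in Cre, -1.32 (SE 0.085, adjusted p = 1.19e-11) in Cre + NFIA and -0.27 (SE 0.085, adjusted p = 0.0144) in Cre + Δpro#3. The fall in Cre was lost without the day 7 Cre replicate 2 (adjusted p = 0.0767). Tbc1d4 rose by 0.54 (SE 0.16, adjusted p = 0.00865) with the mutant, and this was 0.33 without its day 7 replicate 3 (adjusted p = 0.0828). Trib3 rose in ctrl (1.55 (SE 0.071, adjusted p = 5.58e-14)), Cre (0.91 (SE 0.071, adjusted p = 1.16e-09)) and the mutant (0.76 (SE 0.071, adjusted p = 2.8e-08)). In Cre + NFIA, where it was already high at day 0, its value was 0.15 (SE 0.071, adjusted p = 0.0715), and it passed without the day 0 replicate 2 of that group (adjusted p = 0.0161).

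Whether the differences between cell types changed with differentiation was tested as an interaction over all 24 libraries. For Cre against ctrl all 9 passed (49.2% of all genes), with 0 past 3-fold (1.53%). The Slc2a4 call there was lost with a pseudocount of 0.1 (adjusted p = 0.118) and with voom on reads (adjusted p = 0.513). For Cre + NFIA against Cre 8 of 9 passed (48.9%), Irs1 being the exception at 0.09 (SE 0.095, adjusted p = 0.45), and Slc2a4 was past 3-fold (2.86%). For the mutant against Cre 6 of 9 passed (18.2%), again with Slc2a4 past 3-fold (0.767%). That Slc2a4 call was lost with voom on reads (adjusted p = 0.47), and those of Irs1, Irs2 and Pde3b were lost with only the groups compared in the fit (adjusted p = 0.0549, 0.0608 and 0.0719). For full-length NFIA against Cre, Trib3 went from 0.93 at day 0 to 0.16 at day 7 (interaction -0.76 (SE 0.10, adjusted p = 2.83e-06)), and Slc2a1 from 0.08 to -0.96 (interaction -1.05 (SE 0.12, adjusted p = 4.65e-07)).

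The other genes of the pathway were taken from 7 lists of 97 genes, 87 of which were tested. In Cre against ctrl at day 7, 34 were higher and 30 lower (median 0.05), where 36.1% and 22.7% of all genes were. In Cre + NFIA against Cre, 32 were higher and 34 lower (median -0.03), where 27.0% and 35.9% of all genes were. In the mutant against Cre 10 were higher and 11 lower (median -0.01), where 7.70% and 10.0% of all genes were. Over ctrl differentiation 39 rose and 32 fell (median -0.05), where 32.9% and 38.1% of all genes did.

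At the membrane, the list of receptor partners, adaptors and inhibitors gave 6 higher and 4 lower of 16 tested in Cre against ctrl at day 7 (all genes: 36.1% higher, 22.7% lower). In Cre + NFIA against Cre it gave 4 higher and 8 lower of 16 tested (all genes: 27.0% higher, 35.9% lower). Igf1r, the insulin-like growth factor receptor, moved opposite to Insr: it changed by 0.84 (SE 0.11, adjusted p = 5.94e-05) in Cre relative to ctrl and by -1.36 (SE 0.11, adjusted p = 9.15e-07) in Cre + NFIA relative to Cre. Ptprf, a receptor phosphatase, was lower with full-length NFIA (-1.06 (SE 0.091, adjusted p = 1.03e-06)). Grb10, an adaptor that inhibits the receptor, was higher with the mutant than in Cre (0.74 (SE 0.13, adjusted p = 0.0026)). In ctrl differentiation Socs3, a suppressor of receptor signalling, fell (-2.17 (SE 0.090, adjusted p = 1.24e-14)), as did Ptprf (-1.22 (SE 0.086, adjusted p = 5.2e-11)) and Igf1r (-1.13 (SE 0.091, adjusted p = 4.45e-10)).

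The list of PI3K, PDK1, AKT and phosphatases gave 6 higher and 3 lower of 15 tested in Cre against ctrl (all genes: 36.1% higher, 22.7% lower). It gave 4 higher and 7 lower of 15 tested in Cre + NFIA against Cre (all genes: 27.0% higher, 35.9% lower). In the mutant against Cre, 1 was higher and 1 lower of 15 tested (all genes: 7.70% higher, 10.0% lower). Akt1, named after its values were seen, changed by 0.60 (SE 0.064, adjusted p = 1.02e-05) in Cre relative to ctrl and -0.73 (SE 0.064, adjusted p = 1.26e-06) in Cre + NFIA relative to Cre, from a mean of 59.7 FPKM in ctrl to 90.8 in Cre. Mean Akt2 FPKM, a level per length, was 61.4 in ctrl and 67.1 in Cre + NFIA, beside 59.7 and 54.4 for Akt1. In Cre and Cre + Δpro#3 it was 29.9 and 24.3 FPKM, beside 90.8 and 102 FPKM for Akt1. The mTOR list gave 4 higher and 4 lower of 10 tested and 6 higher and 3 lower of 10 tested in the first pair of comparisons, and 0 of 10 passed in the mutant against Cre. The shares over all genes are those given above for the same comparisons.

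Among GLUT4 vesicle genes, the counts were 7 higher and 4 lower of 16 tested in Cre against ctrl (all genes: 36.1% higher, 22.7% lower). They were 4 higher and 5 lower of 16 tested in Cre + NFIA against Cre (all genes: 27.0% higher, 35.9% lower). In the mutant against Cre they were 2 higher and 1 lower of 16 tested (all genes: 7.70% higher, 10.0% lower). Sort1, the sortilin that sorts GLUT4 into storage vesicles, moved with Slc2a4: it was higher at 1.69 (SE 0.24, adjusted p = 5.99e-05) with full-length NFIA and lower at -1.93 (SE 0.24, adjusted p = 0.000528) with the mutant, both relative to Cre, and it rose by 5.68 (SE 0.19, adjusted p = 7.55e-16) in ctrl differentiation. Rhoq, the small GTPase TC10, was higher with the mutant (0.41 (SE 0.095, adjusted p = 0.0125)). Of 4 tested other hexose transporters, 2 were higher in Cre than ctrl (all genes: 36.1%). In Cre + NFIA 2 were lower than in Cre (all genes: 35.9%), among them Slc2a10 (-0.98 (SE 0.090, adjusted p = 1.79e-06)).

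The list of other AKT targets and antilipolytic genes gave 4 higher and 8 lower of 12 tested in Cre against ctrl (all genes: 36.1% higher, 22.7% lower). In Cre + NFIA against Cre it gave 7 higher and 4 lower of 12 tested (all genes: 27.0% higher, 35.9% lower). Mlxipl, which encodes the glucose-sensing factor ChREBP, changed by -1.49 (SE 0.32, adjusted p = 0.00165) in Cre relative to ctrl and -2.44 (SE 0.32, adjusted p = 0.000682) in the mutant relative to Cre. Srebf1, a lipogenic factor induced by insulin, was higher with full-length NFIA (1.64 (SE 0.14, adjusted p = 9.46e-07)). Abhd15, a partner of PDE3B, was lower with the mutant (-1.60 (SE 0.22, adjusted p = 0.000838)) and rose in ctrl differentiation (4.51 (SE 0.18, adjusted p = 8.49e-15)), as did Mlxipl (5.25 (SE 0.25, adjusted p = 8.82e-14)). Foxo3, a factor that AKT keeps out of the nucleus, was higher in Cre than ctrl (0.74 (SE 0.063, adjusted p = 2.27e-06)). Of the stress list, Fgf21, a hormone that acts on fat and liver, was lower in Cre than ctrl (-2.37 (SE 0.28, adjusted p = 2.07e-05)), and Phgdh, a serine synthesis enzyme, was higher with the mutant than in Cre (0.34 (SE 0.079, adjusted p = 0.0128)).

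Likeness of pattern was measured as Pearson's r over the 8 group means of log2(FPKM + 1), among 9757 genes with a highest mean of at least 5 FPKM. Each point is the mean of the 3 libraries of a group. The spread of the points holds both the step from day 0 to day 7 and differences between cell types. With so few points, these values describe and do not test. The 3 nearest genes were Tmem120b, Mtus1 and Rgcc for Slc2a4, Retn, Pcx and Arxes2 for Pde3b and Cebpa, Pparg and Arl6ip1 for Irs1. They were Cat, Mpc1 and Mkks for Irs2, Slc25a34, Rxrg and Tspan14 for Akt2 and Bcl2l13, Acaca and Rtn4ip1 for Insr. For Tbc1d4 they were Exoc8, Slc44a3 and Fgfrl1, and for Slc2a1 Fyn, Slc1a4 and B4galt5. The nearest to Trib3 were Bcdin3d, Fkbp1a and Hgh1, with r 0.979 to 0.982, the lowest of the 9, where the other 24 values were 0.993 or higher. Among the members, Slc2a1 had r of -0.92 to -0.98 with the 7 others apart from Trib3 (-0.63). The pairs among Slc2a4, Insr, Irs1, Irs2, Akt2, Pde3b and Tbc1d4 had r of 0.92 to 1.00, and Trib3 had 0.66 to 0.84 with them. With the 24 libraries in place of means, 9 of the 27 nearest genes were the same.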

How the data were processed

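The authors prepared stranded mRNA libraries from the 24 samples (4 cell types, 2 days, 3 replicates), aligned the reads with STAR 2.5.3a to mm9, per the labels, kept unique alignments counted per gene on the matched strand, and deposited FPKM values. The gene annotation is not given in the sources used here. FPKM times gene length gave whole reads for 100% of values (tolerance 0.1), at 7732829 to 14622189 reads a library. The floor on reads covers counting error only and not the spread between libraries.

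Groups came from the sample labels. Each comparison was fitted with limma 3.58.1 in R 4.3.3 (trended variance) on log2(FPKM + 1) over the 12640 genes with at least 1 FPKM in at least 3 libraries, with Benjamini-Hochberg adjustment over all of them. Fits within a day used 12 libraries, and fits across days and interactions used 24. There were 17 comparisons. Fold changes on this scale understate the change of low genes. An exact permutation test of 3 against 3 libraries cannot go below p = 0.1 and was not used. The code was tested on simulated data: for Cre against ctrl at day 7, 200 of 200 genes changed 3-fold were recovered among 12530, with 8 false calls, and for its interaction with day 198 of 200, with 14 false calls. The simulated counts had a fixed, small spread for every gene, and low genes were not among those changed. Real genes could vary more, as Slc2a4 did in Cre at day 7 (12.1 ± 4.88 FPKM, SD, n = 3). The simulation therefore checks the code and does not give the power in these data. Voom in limma was also run on the recovered whole reads.

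The members and lists were chosen with earlier results of these data known. Besides the 9 genes and Nfia, the text names up to 3 higher and 3 lower pathway genes with the largest change past the threshold and without overlap between groups, in each of 3 day 7 comparisons and in ctrl differentiation, and the 3 genes most like each member. Some genes that this rule selects are not reported here. Alternatives were other pseudocounts, filters, scalings, sets of libraries in the fit, no variance trend, a replicate block, voom and leaving out each library.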

Additional observations from a re-analysis of the deposited data

Results flagged for a closer look

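The difference between cell types changed from day 0 to day 7 for 23 of the 27 gene and comparison pairs, by limma's interaction term over 24 libraries (adjusted p under 0.05, log2(FPKM + 1) scale, difference at day 7 minus difference at day 0). Of all genes tested, 49.2% passed for Cre against ctrl, 48.9% for Cre + NFIA against Cre and 18.2% for Cre + Δpro#3 against Cre. The comparisons all use the same Cre libraries, so the 27 pairs are not separate observations. For Cre against ctrl the interaction values were Slc2a4 -1.39, Slc2a1 0.66, Insr -0.49, Irs1 -0.45, Irs2 -1.17, Akt2 -1.01, Pde3b -1.33, Tbc1d4 -0.95 and Trib3 -0.64. For Cre + NFIA against Cre they were Slc2a4 2.11, Slc2a1 -1.05, Insr 0.61, Irs2 1.21, Akt2 1.12, Pde3b 1.55, Tbc1d4 0.77 and Trib3 -0.76. For Cre + Δpro#3 against Cre they were Slc2a4 -1.84, Insr -0.54, Irs1 -0.36, Irs2 -0.70, Pde3b -0.80 and Tbc1d4 -1.02. The adipocyte marker sum, 21956 to 25587 FPKM in ctrl and 4388 to 9434 in Cre at day 7 and 112 to 118 and 82.7 to 101 at day 0, moved with these values, and its part in them was not tested.

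Some of these calls were lost under another setting. The Slc2a4 value of Cre against ctrl did not pass with a pseudocount of 0.1 (adjusted p = 0.118) or voom on reads (adjusted p = 0.513), and that of the mutant against Cre did not pass with voom (adjusted p = 0.47). Slc2a4 had at most 20 reads a library at day 0. Tbc1d4 in Cre + NFIA against Cre did not pass with a pseudocount of 0.1 (adjusted p = 0.0594) or voom (adjusted p = 0.0698). In the mutant against Cre, Pde3b did not pass with a pseudocount of 0.1 (adjusted p = 0.0587), voom (adjusted p = 0.0989) or only the 4 groups compared (adjusted p = 0.0719), nor without day 0 Cre replicate 3, day 7 Cre replicate 2 or day 7 mutant replicate 1 (adjusted p = 0.0513, 0.0646 and 0.0576). Irs2 there did not pass with only the groups compared (adjusted p = 0.0608) or without day 0 Cre replicate 1, day 0 mutant replicate 1, day 7 Cre replicate 2 or day 7 mutant replicate 1 (adjusted p = 0.0614, 0.0525, 0.0765 and 0.0699). Irs1 there did not pass with only the groups compared (adjusted p = 0.0549). Akt2 there, not called, passed without day 7 Cre replicate 3 (adjusted p = 0.0309).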

How the results depend on the processing

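No value changed direction between a called result and any alternative. With a 3-fold change required, the number of the 9 genes that passed was 1, 1, 1, 4 and 0 at day 7 for the ctrl to Cre comparison, then full-length NFIA against Cre, the mutant against Cre, the mutant against full-length NFIA, and full-length NFIA against ctrl, 0, 0, 0, 0 and 0 at day 0 in the same order, 5, 2, 4 and 0 for day 7 against day 0 in ctrl, Cre, Cre + NFIA and Cre + Δpro#3, and 0, 1 and 1 for the interactions of the first 3 comparisons. With only the groups compared in the fit, 4 genes passed in Cre + NFIA against ctrl at day 7 (2 in the reported fit) and 3 in the interaction of the mutant against Cre (6). After quantile normalization 5 passed in Cre + NFIA against Cre at day 0 (3). In the mutant against Cre at day 0 (2), 1 passed with no filter, 1 with median-of-ratios scaling, 1 with quantile normalization and 1 with voom on reads. Leaving out 1 library in turn gave 1 to 2 genes for Cre + NFIA against ctrl at day 7, 0 to 1 for Cre against ctrl at day 0 and 0 to 2 for the mutant against Cre at day 0.

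Whether the replicate numbers pair the samples is not stated in the sources used here. No comparison had every same-numbered pair correlated above 0.1, which cannot settle it, and the reported fits treat the samples as unpaired. With the replicate number as a block, the counts were 9, 9, 7, 8 and 2 at day 7, 0, 4, 2, 3 and 4 at day 0, 9, 9, 9 and 7 for the days and 9, 8 and 6 for the interactions, and Trib3 (Cre + NFIA against Cre, day 7, and Cre + NFIA days) and Pde3b (Cre + NFIA against Cre, day 0) were gained. Median-of-ratios scaling moved the median log2 change of all genes by -0.11 for Cre against ctrl at day 7, by -0.10 for the mutant against full-length NFIA at day 7, and by -0.11 and 0.11 for the first pair of interaction contrasts, and quantile normalization moved it by -0.10 for the days in Cre. A pseudocount of 0.1 kept 19 of the 27 nearest genes by likeness, and 24 libraries in place of means kept 9. The depth limits Slc2a4 at day 0, where 3 reads or fewer were counted in some libraries.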
